A study of Homo sapiens and Mus musculus with 41 samples.

Results

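The comparison set 3 libraries of a brain metastatic derivative of PC9 cells (BrM) against 2 libraries of the intermediate stage derivative of the same line (Int), across all genes of the PC9 table with a normalized count of at least 10 in at least 2 of its 10 libraries. This kept 14475 of 23368 genes, and 5 of the 41 libraries of the series enter the contrast. The other PC9 libraries, 3 of the parental line (Par) and 2 of the leptomeningeal metastatic derivative (Lep), entered the same fit to estimate the spread and are given only as levels beside the contrast. PC9 is a human non-small cell lung adenocarcinoma line that the labels describe as having elevated EGFR expression. All groups stably express GFP, were grown in RPMI1640 with 10% FBS, and gave 500 ng of RNA to an unstranded TruSeq RNA v2 library read in pairs of 50 bases. Per the labels, derivatives collected by rinsing the leptomeningeal space of mice were cultured until the cells were uniformly GFP-expressing and passaged 3 times. How the brain derivative was obtained, and how many animals or clones stand behind it, does not appear in the labels. The Int replicates combine biological with technical ones, per the design text, and the BrM replicates are not described. The p-values and standard errors therefore measure only the spread between replicate libraries of the PC9 groups, those of Par and Lep included. RNA came from cultured cells and the counts are of human genes. Whether any reads came from mouse host cells was not tested.

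As background, a carcinoma cell that colonizes the brain leaves blood vessels, attaches to the outer face of capillaries and grows in tissue. Cells in the leptomeninges grow in cerebrospinal fluid, where nutrients and plasma proteins are scarce. Carcinoma cells can combine epithelial genes (keratins, E-cadherin) with mesenchymal ones (vimentin, fibronectin, N-cadherin), a mixed state often called partial epithelial-mesenchymal transition. Airway epithelium also has a secretory and defence repertoire of mucins, S100 proteins, complement and chemokines, much of it under the transcription factor NF-kB.

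The recovered depth was 19051393, 16953780 and 23781567 reads for BrM replicates 1 to 3 and 38432963 and 29344402 for the Int replicates, so low values are less precise in BrM. A count of 3 reads in a library corresponds to 2.89 to 3.94 normalized counts in BrM and to 1.89 and 2.46 in Int. Replicates differed by more than counting noise, with a chi-square per degree of freedom of 2.1 to 5.99 between BrM pairs and 9.97 between the Int libraries. Between 240 and 279 genes lay more than 2-fold apart within a BrM pair and 133 within Int, against 2321 to 3042 for the pairs of 1 BrM and 1 Int library. Libraries also separated by transcript length. The deviation of a library from the 10-library mean, set against transcript length across 13848 genes, had a Spearman rho of 0.42, 0.39 and 0.31 in BrM and of 0.37 to 0.39 in Par, but of -0.47 and -0.42 in Int and -0.45 and -0.35 in Lep. Genes are not independent replicates, so these rho values are descriptions. Long transcripts therefore stood higher in BrM as a class, and the part of this trend in single results was not tested. Depth split the libraries as this trend did, with 18553895, 18763703 and 16792027 reads in Par and 32709007 and 28657904 in Lep. BrM and Int lay on opposite sides of both splits, and a library or processing difference was not tested apart from the derivative. A correction for transcript length and GC content, added after seeing the data, is given beside the counts below, and a value called corrected is the log2 fold change after it.

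Among the lung adenocarcinoma markers, the general epithelial ones were high in both groups, while the lung lineage ones were low or near 0. EPCAM, an epithelial adhesion molecule, had means of 9579 ± 432 normalized counts in BrM (SD, n = 3) and 9127 ± 328 in Int (SD, n = 2). KRT7, a simple epithelial keratin, had 97773 ± 7026 and 101512 ± 3457. E-cadherin (CDH1) had 10177 ± 194 and 7822 ± 22.5, a log2 difference of 0.38 ± 0.07 that is short of the fold threshold. The lung lineage factor NKX2-1 was listed at 0 in the BrM libraries and at 0.629 and 0 in Int, and the surfactant gene SFTPB at 0 to 2.63 in all 5, so these defining markers were at or near 0 in both groups. Of 15 macrophage and microglia markers, AIF1, TYROBP, C1QA, C1QB, TREM2 and CD163 were at 0 in all 5 libraries. Of 4 tested, 1 was higher (CSF1R) and 2 lower (CD14, ITGAM). CD68, which was not called, read 1850 to 1980 in BrM and 2880 and 2710 in Int. It made up most of the summed level of the macrophage list, 2301 to 2475 in BrM and 3208 and 3054 in Int. Neural and glial markers AQP4, S100B, OLIG2 and MOG were at 0 in all 5 libraries and GFAP at 0.963 to 3.28. TUBB3 read 1560 to 1710 in BrM and 1470 and 1250 in Int, and MBP 1940 to 2180 and 1040 and 983. These 2 genes made up most of the summed level of that list, 3699 to 3780 in BrM and 2534 and 2258 in Int. The part of other cell types in the results was not tested.

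In all, 2484 genes were called at an adjusted p below 0.05 and a log2 fold change of at least 1 in size (limma with Benjamini-Hochberg adjustment), which is 17.2% of those tested. Of these 1435 (9.91% of the tested genes) were higher in BrM and 1049 (7.25%) lower. All values of the higher group lay above all values of the lower one in 2478 of the 2484. The thresholds favour genes with such separation, so this count is no further support for the calls. The change was at least 4-fold for 324 higher and 256 lower genes and at least 16-fold for 28 and 40. The median log2 fold change over all genes tested was -0.01. After the length and GC correction, 1053 of 13848 genes were higher (7.6%) and 905 lower (6.54%), so the share of higher calls went from 57.8% to 53.8%. Of 2375 called genes with a transcript length, 1579 stayed called in the same direction and 0 were called in the opposite one. The plot of all genes shows the calls against expression level. Below, rose and fell compare BrM with Int only. Among genes that rose, Par means lay near BrM for some, such as HIF1A (6201 in Par, 6011 in BrM). For others they lay above BrM, such as NRG1 (152 and 67.7), or near Int, such as VIM (51.4 in Par, 39 in Int).

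**Figure D1:**
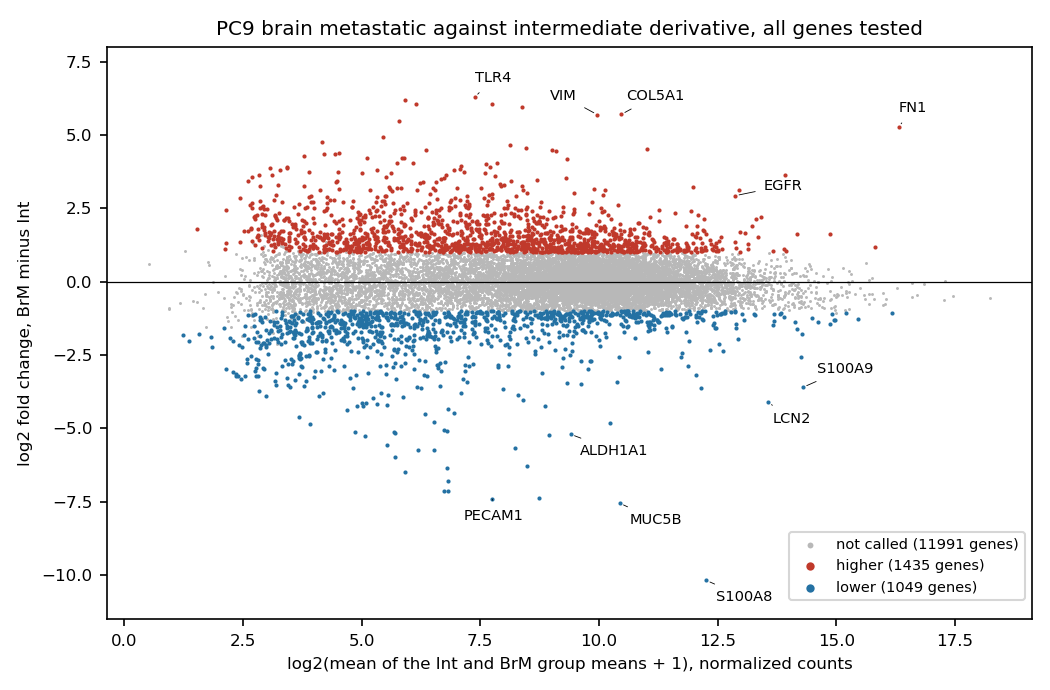
Log2 fold change of BrM (3 libraries) minus Int (2 libraries) against the log2 of the mean level in normalized counts, 1 point per tested gene. Red points are the 1435 genes called higher, blue points the 1049 called lower; S100A8 lies lowest and FN1 far to the right among the higher genes.

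The calls followed transcript length before the correction. In the fifth of genes with the shortest transcripts the median log2 fold change was -0.45, with 4.47% called higher and 14.8% lower. In the fifth with the longest it was 0.49, with 21.7% higher and 3.36% lower. After the correction those shares were 8.08% and 6.31% for the shortest transcripts and 9.21% and 8.52% for the longest. Counts for families of long transcripts (matrix, integrins, cadherins, synaptic genes) and of short ones (S100 proteins, chemokines) are therefore read with both values. The counts of each list below stand against 9.91% higher and 7.25% lower over all genes. Counts after the correction stand against 7.6% and 6.54%.

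**Figure D2:**
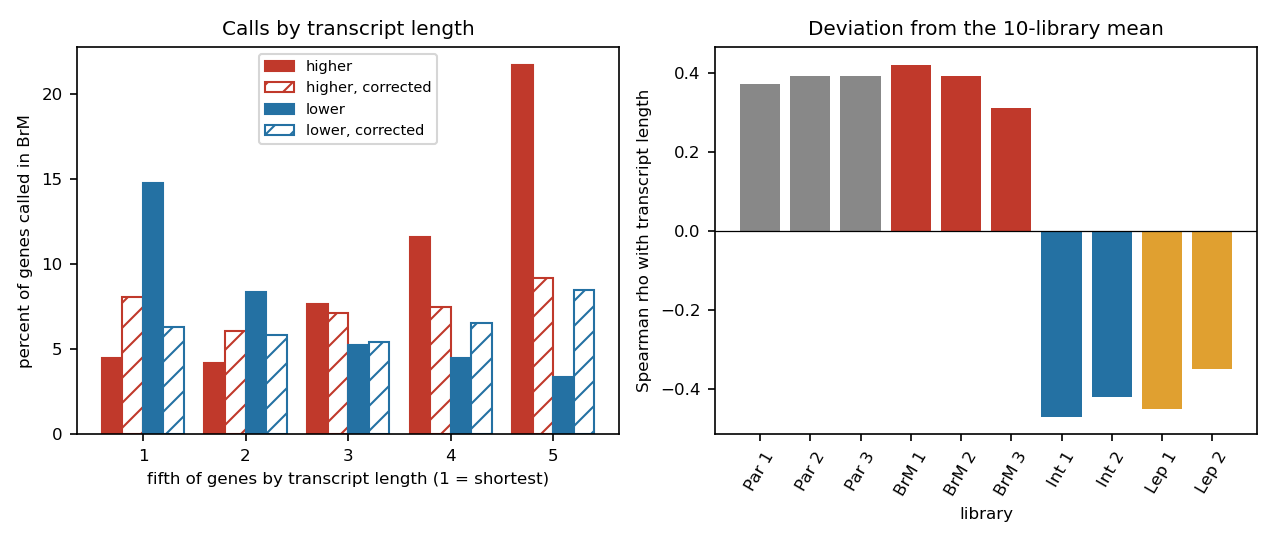
Left, percent of genes called higher (red) or lower (blue) in BrM by transcript length, with 13848 genes in classes of equal size, before (filled) and after (hatched) the correction. Right, Spearman rho between each library's deviation from the 10-library mean and transcript length, 1 bar per library; Par and BrM are above 0, Int and Lep below.

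Several of the 15 named genes with the largest increases were near 0 in Int. TLR4, the receptor for bacterial lipopolysaccharide, read 353, 314 and 321 normalized counts in the 3 BrM libraries and 3.14 and 3.28 in Int (log2 fold change 6.29 ± 0.19, adjusted p = 2e-10, corrected 5.63). Its Par mean was 197 ± 13 (SD, n = 3) and its Lep libraries read 8.07 and 12.5, so the Par libraries were high as well. FGFR2, a fibroblast growth factor receptor, read 137, 98.5 and 119 in BrM against 0 and 1.64 in Int, which is 315 reads against 2, a ratio of 167 with a 95% counting interval of 45.9 to 1386. It was listed at 0 in each Par and Lep library. C12orf75 had 367 reads in BrM and 3 in Int, a ratio of 130 (44.1 to 632).

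SLCO2A1, a prostaglandin transporter, read 415, 411 and 430 in BrM and 3.77 and 7.37 in Int (6.05 ± 0.40). LBH, a transcription cofactor of limb and heart development, read 600, 791 and 566 against 8.81 and 9.83 (5.97 ± 0.35). In both genes the BrM libraries stood clear of all the other PC9 libraries. TSHZ3, a zinc finger developmental factor, rose from a mean of 1.45 ± 0.269 to 107 ± 2.56 (5.47 ± 0.58). DPYSL3, a cytoskeletal protein of growing axons, rose by 4.67 ± 0.24 and NUAK1, an AMPK-related kinase, by 4.48 ± 0.24. KIAA0754 (4.57 ± 0.23, corrected 3.82) and CDYL2, a chromodomain protein (4.50 ± 0.35, corrected 3.90), completed the set with the mesenchymal genes below.

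Among the 15 largest decreases, S100A8, a calcium-binding alarmin subunit, read 7.06, 15.8 and 2.89 in BrM against 6975 and 12609 in Int (log2 fold change -10.18 ± 0.42, adjusted p = 1.9e-09, corrected -9.52). MUC5B, a gel-forming airway mucin, read 14.1, 14.4 and 12.5 against 2459 and 3056 (-7.55 ± 0.12, corrected -8.22). PECAM1, an adhesion molecule usually taken as an endothelial marker, read 2.35, 1.31 and 0.963 against 355 and 501 (-7.41 ± 0.24). The rule that named these genes required BrM and Int libraries that do not overlap, so their separation is no further result. Par means lay between (1428 ± 163, 701 ± 70.8 and 92.2 ± 1.79, SD, n = 3).

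Of the 10 endothelial markers, 3 were tested: PECAM1 fell, while CDH5 read 261 to 280 in BrM and 520 and 401 in Int, and ESAM 122 to 125 and 103 and 92.6, neither called. EMCN was at 0 in all 5 libraries, KDR and CLDN5 were at or below 0.963 and VWF at 2.63 to 7.55. The summed level of the endothelial list was 395 to 415 in BrM and 988 and 1004 in Int.

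Several decreases ended at a handful of reads. SLC6A14, an amino acid transporter, had 2 reads in the BrM libraries together and 586 in Int, a ratio of 276 (95% counting interval 76.1 to 2286). GGT6, a gamma-glutamyltransferase, had 1 against 330 (311, interval 55.4 to 12323), and the mucosal chemokine CXCL17 2 against 280 (132, interval 36.2 to 1095). These intervals cover counting error only. PDZK1IP1, a small membrane protein of epithelia, read 1.18, 1.31 and 2.89 in BrM and 206 and 235 in Int (-6.36 ± 0.35, corrected -5.68). SELENBP1, a selenium-binding methanethiol oxidase, changed by -6.27 ± 0.23 and NCCRP1, an F-box protein of squamous epithelium, by -5.22 ± 0.17. Fitted fold changes of genes at a few reads depend on the pseudocount, and ratios of reads are given for those with at most 3 reads in a group.

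**Figure D3:**
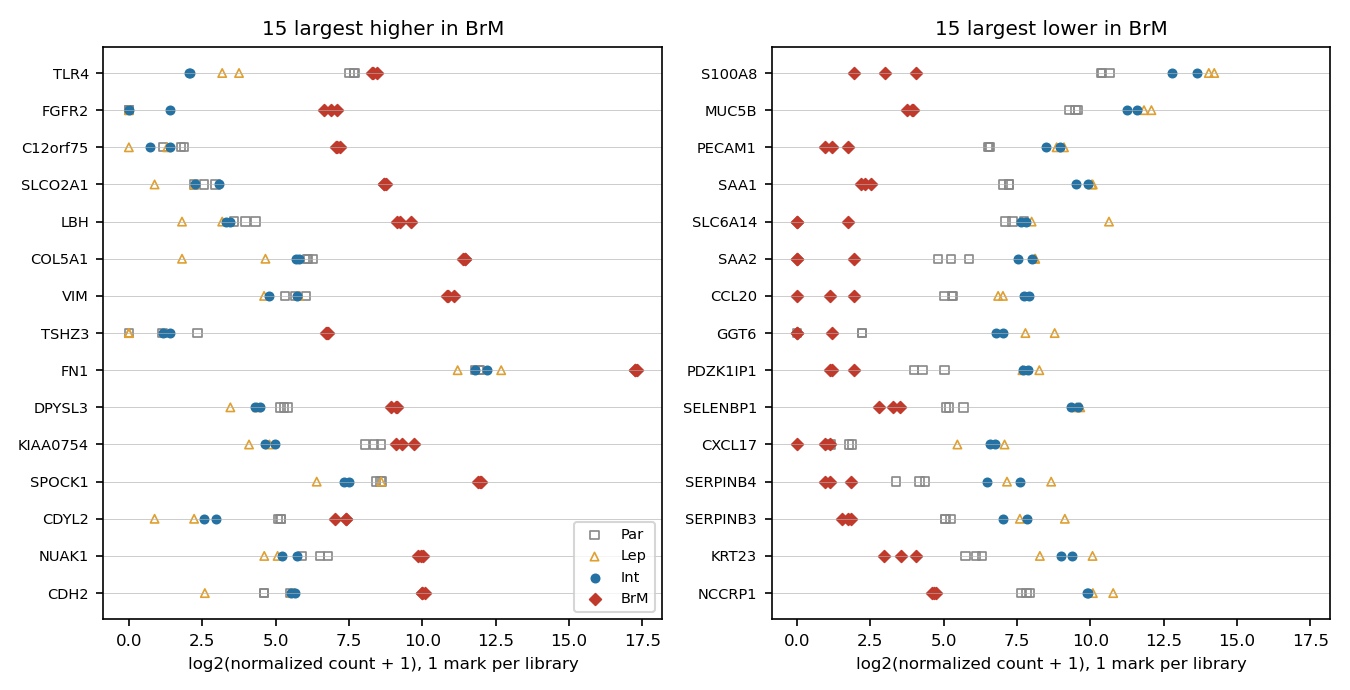
Levels as log2(normalized count + 1) of the 15 genes with the largest increase (left) and decrease (right) in BrM against Int, 1 mark per library: BrM red diamonds, Int blue circles, Par grey squares, Lep orange triangles. BrM and Int do not overlap in any of the 30 genes, as the rule for naming them required.

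Mesenchymal genes included several of the largest increases. Of 28 members tested 13 were higher and 3 lower (median log2 fold change 0.94, against -0.01 over all genes), and 11 and 3 after the correction. Vimentin (VIM), an intermediate filament of mesenchymal cells, read 1872, 1827 and 2189 in BrM and 26.4 and 51.6 in Int (5.69 ± 0.33, adjusted p = 2.2e-08). Fibronectin (FN1), an adhesive matrix glycoprotein, read 157220, 163601 and 155157 against 3597 and 4700 (5.27 ± 0.28, corrected 4.65). FN1 alone took 0.677% to 0.735% of the BrM reads, ranking 2, 2 and 4 among all genes by number of reads, and 0.0149% and 0.0195% of the Int reads. In both genes the BrM libraries formed a tight group far above Int, and Par stood near Int with means of 51.4 ± 12.8 for VIM and 3799 ± 212 for FN1.

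N-cadherin (CDH2), the adhesion molecule of neural and mesenchymal cells, read 1007, 1021 and 1090 in BrM and 49.1 and 45.1 in Int (4.44 ± 0.59). Its Lep libraries, which enter that standard error, read 46.2 and 5.02. SPOCK1, a matrix proteoglycan, rose by 4.53 ± 0.41 from 181 and 161 to between 3821 and 4140. The other increases were AXL, MYL9, TCF4, SNAI2, TAGLN, LOXL2, CALD1, TGM2 and TPM1, which include contractile proteins and the transcription factor SNAI2 (Slug). The 3 decreases were S100A4, LOXL4 and ACTA2, of which S100A4, a motility-associated calcium-binding protein, changed by -2.90 ± 0.21 (corrected -2.22). E-cadherin was not lower in BrM, as given above. Of 41 epithelial genes tested 5 were higher (MARVELD2, GRHL3, DSC2, KLF4, DSG2) and 4 lower (ELF5, FXYD3, MUC1, KLF5), with a median of -0.14 and counts of 4 and 5 after the correction. The shares before the correction were close to the 9.91% and 7.25% over all genes. FXYD3, a regulator of the sodium pump, changed by -2.35 ± 0.21 from a mean of 10528 ± 1207 to 2067 ± 149. MARVELD2 and GRHL3 rose by 1.47 ± 0.15 and 1.36 ± 0.17. KLF4 rose by 1.07 ± 0.12 but was not called without Int replicate 2, and DSC2 by 1.08 ± 0.10 with 0.43 after the correction, which ends that call.

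Genes of the TGF-beta and YAP lists, which answer to matrix stiffness and to TGF-beta signalling, moved in 1 direction among the called members. Of 33 tested, limma, edgeR and DESeq2 each called 15 higher and 0 lower (median 0.82). At an unadjusted p below 0.05 in limma 29 were above and 2 below Int, and after the correction 10 were called higher and 0 lower (median 0.72). AXL, a receptor tyrosine kinase for GAS6, read 1225, 1059 and 1226 against 96.9 and 102 (3.54 ± 0.44). ANKRD1, a nuclear ankyrin repeat protein, rose from 71.7 ± 28.4 to 532 ± 84 (2.92 ± 0.44), and the ligand TGFB2 from 380 ± 24.4 to 2335 ± 37.2 (2.62 ± 0.41). These 3 were higher in every BrM library than in any Par library, whose means were 109 ± 12.5, 29.3 ± 9.99 and 447 ± 44.2.

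Collagens and other matrix genes gave 17 higher and 5 lower members of 57 (median 0.54), and 12 and 7 after the correction. COL5A1, a fibrillar collagen chain, read 2710, 2785 and 2844 in BrM and 50.3 and 54.9 in Int (5.70 ± 0.53, adjusted p = 1e-06). Thrombospondin 1 (THBS1) read 14359, 13128 and 15002 against 1911 and 1389 (3.12 ± 0.25, corrected 2.54). Its Par mean was 7183 ± 193, above Int too. COL4A3, a basement membrane collagen chain, rose by 2.92 ± 0.31. Osteopontin (SPP1), a secreted ligand of integrins and CD44, read 6981, 7211 and 7429 against 1429 and 1536 (2.28 ± 0.45), with a Par mean of 6541 ± 190. The decreases included the cartilage collagens COL9A3 (-2.07 ± 0.31) and COL9A2 (-1.97 ± 0.25) and the calcification inhibitor MGP (-1.74 ± 0.47), which was not called under the replicate block with the correction.

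Integrins, the receptors that bind matrix to the cytoskeleton, were higher in 7 and lower in 2 of 19 (median 0.64), and in 4 and 2 after the correction. ITGB6, the epithelial subunit that with the alpha V chain activates latent TGF-beta, read 1731, 1800 and 1600 in BrM and 211 and 170 in Int (3.17 ± 0.13, adjusted p = 1.7e-09). The collagen receptor subunit ITGA2 rose from 3703 ± 111 to 16510 ± 1358 (2.15 ± 0.18) and the common subunit ITGB1 from 3997 ± 100 to 15044 ± 856 (1.91 ± 0.07). The laminin receptor subunit ITGA6 rose by 1.31 ± 0.11, but its corrected value of 0.94 ends the call. The 2 decreases were the leukocyte subunits ITGAM (-2.48 ± 0.44) and ITGB2 (-1.92 ± 0.22), which pair with each other in myeloid cells, where ITGAM is also a macrophage marker.

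Matrix proteases and their inhibitors went both ways, with 9 higher and 8 lower of 55 (median -0.07) and 7 and 9 after the correction. ADAMTS6, a matrix metalloprotease, rose by 3.80 ± 0.56 from 4.44 ± 1.83 to 73.2 ± 13.6, and ADAM19 by 2.06 ± 0.16. ADAM12 rose by 1.42 ± 0.18 with a corrected value of 0.84, which ends its call. Among the decreases were the elastase inhibitor PI3 (-2.98 ± 0.14, corrected -2.32), SERPINA3 (-3.10 ± 0.32), the membrane serine protease TMPRSS4 (-2.72 ± 0.21) and the lysosomal protease CTSS (-2.84 ± 0.27). CTSS read 23.5, 46 and 37.6 in BrM and 245 and 262 in Int.

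Cadherins and protocadherins, which join like cells, were higher in 9 and lower in 0 of 25 in limma, and lower in 0 in edgeR and DESeq2, with 4 lower at an unadjusted p below 0.05. After the correction 5 were higher and 3 lower, and the median went from 0.67 to 0.26. Beside CDH2, CELSR3, an atypical cadherin of axon tracts, rose by 1.75 ± 0.16 (corrected 1.14) and PCDHGC3 by 1.42 ± 0.13. PCDHGC3 shares exons with its gene cluster, so the split of reads among cluster members is uncertain. CDH16 rose by 1.74 ± 0.50 but was not called without Int replicate 2. PCDH7, a protocadherin reported to build gap junctions between brain metastatic cells and astrocytes, read 1479, 1538 and 1198 in BrM and 2379 and 2477 in Int (-0.80 ± 0.10), short of the fold threshold before the correction and past it after (-1.27). Its gap junction partner GJA1 had 3 reads in BrM and 0 in Int and was not tested.

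EGFR, the gene named in the PC9 label, rose several-fold. This receptor, whose mutant form drives PC9 growth, read 15117, 12762 and 11716 in BrM and 1867 and 1595 in Int (2.93 ± 0.11, adjusted p = 1.1e-09, corrected 2.27). The Par mean was 9436 ± 304 and the Lep libraries read 1527 and 1928, so the low libraries were Int and Lep. Of 15 ERBB receptors and ligands 4 were higher and 1 lower (median 0.30), and 3 and 1 after the correction. The ligand NRG1 rose by 2.72 ± 0.47 and LRIG3, a membrane regulator of these receptors, by 1.67 ± 0.12. The EGFR ligand TGFA rose from 1527 ± 34.7 to 3329 ± 168 (1.12 ± 0.07), and its corrected value of 0.91 ends the call. The ligand EGF itself read 45.9, 36.8 and 35.6 in BrM against 264 and 305 in Int (-2.82 ± 0.16).

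Of 29 genes induced by the MAPK cascade below these receptors 3 were higher and 4 lower (median -0.09), and 3 and 3 after the correction, a share of higher calls close to the 9.91% of all genes. MYC, a growth-promoting transcription factor, rose from 2119 ± 443 to 6193 ± 267 (1.56 ± 0.10), EPHA4 by 2.71 ± 0.14 and the phosphatase DUSP1 by 1.18 ± 0.27. The immediate early genes FOS and EGR1 changed by -1.64 ± 0.29 and -1.52 ± 0.18, and DUSP6, a phosphatase that restrains ERK, read 1158, 1043 and 1097 against 2764 and 3395 (-1.48 ± 0.18). PHLDA2 changed by -1.11 ± 0.11, with a corrected value of -0.47 that ends the call.

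Of 34 other receptor tyrosine kinases and ligands 7 were higher and 6 lower (median 0.35), and 5 and 5 after the correction. The 2 fibroblast growth factor receptors named here moved in opposite directions, FGFR2 as given above and FGFR3 from 1165 and 1160 in Int to 218, 246 and 216 in BrM (-2.36 ± 0.08). BDNF, a neurotrophin, read 133, 138 and 134 in BrM against 13.2 and 11.5 in Int (3.35 ± 0.28), and the growth factor IGF2 rose by 1.88 ± 0.52. VEGFC, a lymphatic growth factor, changed by -1.46 ± 0.13. FGFBP1 (-1.82 ± 0.46) and FGF19 (-1.21 ± 0.35) were not called without Int replicate 2, and FGF19 also lost its call in the correction (-0.95).

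Developmental signalling changed member by member. Of 44 WNT genes 6 were higher and 5 lower (median 0.35, corrected 0.03), and 7 and 6 after the correction. ROR1, a WNT5A receptor kinase, read 726, 607 and 570 in BrM and 95 and 60.6 in Int (3.04 ± 0.20), and the secreted antagonist SFRP1 4276, 4038 and 4135 against 790 and 747 (2.43 ± 0.08). The ligands WNT7A and WNT11 rose by 1.56 ± 0.10 and 1.48 ± 0.21. Other ligands fell, WNT3A by 1.39 ± 0.31 and WNT4 by 1.19 ± 0.30 on the log2 scale. LGR6 (-1.13 ± 0.28) and WNT5A (-1.09 ± 0.10) were not called without Int replicate 2, nor LGR6 without BrM replicate 2.

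Of 37 Notch, Hedgehog and BMP genes 10 were higher and 5 lower (median 0.26), and 10 and 4 after the correction. The BMP antagonists CHRDL1 and GREM1 rose by 2.64 ± 0.25 and 2.02 ± 0.52 (corrected 1.33 for GREM1, which was then not called with the replicate block) and the ligand BMP6 by 1.77 ± 0.14. GLI2, a transcription factor of Hedgehog signalling, read 148, 156 and 168 in BrM against 28.9 and 32 in Int (2.33 ± 0.31). The Notch target HES1 fell from 2305 ± 167 to 804 ± 50.7 (-1.52 ± 0.09), while the Notch ligand gene JAG1 and the receptor gene NOTCH2 are among the members called higher. BMP4 had a fold change of -1.07 ± 0.38 and was not called after the correction (-0.67) or without BrM replicate 1, BrM replicate 2, Int replicate 1 or Int replicate 2. Of 24 HOX genes, 1 was higher and 3 lower (median -0.07), and 2 and 2 after the correction. Before the correction the share of higher calls was below the 9.91% over all genes. HOXB9, the member called higher, read 91.8, 69.6 and 98.3 in BrM and 32.1 and 26.2 in Int (1.53 ± 0.25). HOXA10 and HOXA5 changed by -1.70 ± 0.22 and -1.60 ± 0.17.

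Axon guidance families (semaphorins, plexins, ephrins and Eph receptors) were higher in 11 and lower in 3 of 54 (median 0.20, corrected 0.03), and in 10 and 4 after the correction. SEMA5B read 232, 219 and 236 in BrM against 10.7 and 22.1 in Int (3.81 ± 0.43). SEMA7A rose by 2.16 ± 0.13 and the receptor NEO1 by 2.07 ± 0.11. NRP2, a coreceptor of semaphorins and VEGFC, fell from 615 ± 72.9 to 166 ± 12.7 (-1.88 ± 0.17) and EPHB3 by 1.33 ± 0.09 on the log2 scale. Of 40 neuronal and synaptic genes 10 were higher and 6 lower (median 0.20), but 7 and 8 after the correction, which turns the larger count round. The calcium-activated potassium channel KCNMA1 rose by 3.70 ± 0.34 (corrected 2.99), the calcium channel CACNA1D by 2.44 ± 0.25 (corrected 1.81) and the granin SCG2 by 2.11 ± 0.21. Decreases included the glutamate transporter SLC1A3 (-1.62 ± 0.34), the NMDA receptor subunits GRIN2D (-1.54 ± 0.21) and GRIN1 (-1.42 ± 0.21), and the GABA receptor subunit GABRE (-1.16 ± 0.10). Of the neural and glial markers, SNAP25, MBP and SYT1 were called higher of 4 tested. SNAP25 and SYT1 read 14.4 to 17.7 in BrM, and MBP (1.04 ± 0.07) was not called after the correction (0.44) or without Int replicate 2.

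Genes reported for brain colonization were higher in 9 and lower in 5 of 28 (median 0.09), and in 7 and 6 after the correction. This list draws on work on metastatic derivatives of this kind, which may include these lines, so it is not independent evidence of its direction. L1CAM, a neural adhesion molecule with which cells spread along capillaries, read 6656, 6518 and 6552 in BrM and 1215 and 1246 in Int (2.42 ± 0.15, adjusted p = 3.6e-08). The prostaglandin synthase PTGS2 (COX-2) rose from 104 ± 6.79 to 373 ± 12.6 (1.83 ± 0.22) and LEF1, a WNT transcription factor, from 18.3 ± 5.42 to 51.4 ± 1.02 (1.47 ± 0.32). The death ligand TNFSF10 (TRAIL) fell from 124 and 173 to 16.5, 25 and 7.71 (-3.22 ± 0.40). CTSS and S100A4, given above, and ALDH3A1, below, are also members.

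**Figure D4:**
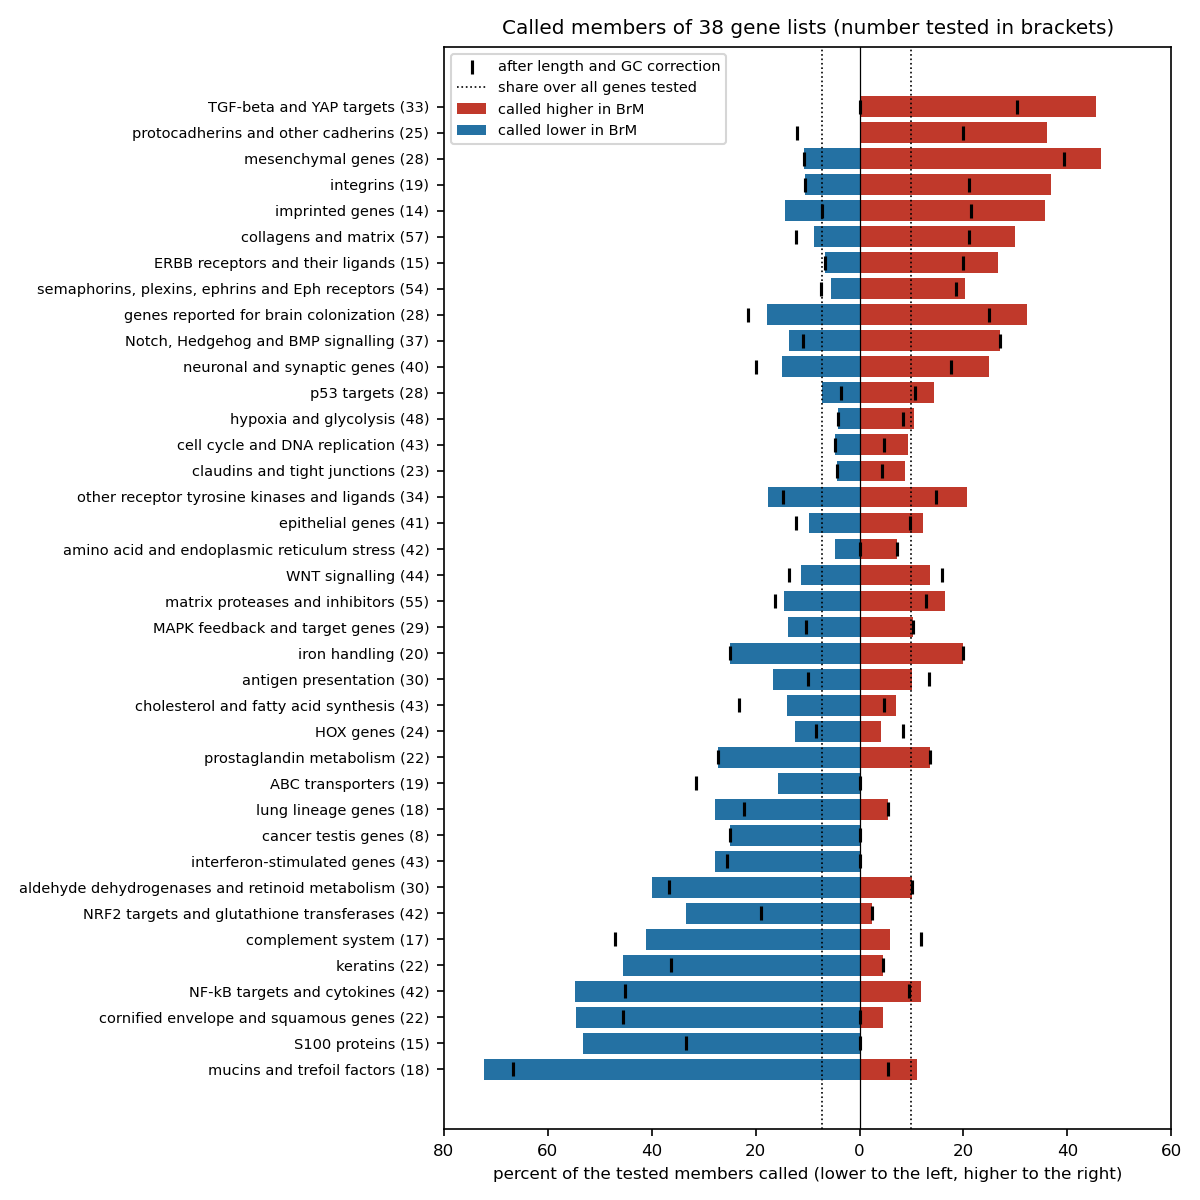
Percent of the tested members of each of 38 gene lists called higher (red, right) or lower (blue, left) in BrM, with the share after the length and GC correction as a black tick and the share over all genes as dotted lines (9.91% higher, 7.25% lower). The mucin list extends farthest to the left, with 13 of 18 members lower.

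The mucin and trefoil list, the products of secretory epithelium, was lower in 13 and higher in 2 of 18 (median -2.16), and in 12 and 1 after the correction. MUC6, a gastric gel-forming mucin, read 2.35, 0 and 6.74 in BrM against 50.9 and 58.2 in Int (-4.23 ± 0.63, and -3.44 without BrM replicate 2). The adhesion molecule CEACAM5 read 5.88, 6.57 and 3.85 against 232 and 198 (-5.09 ± 0.67). SPDEF, a transcription factor of goblet cells, fell from 264 and 242 to 10.6, 30.2 and 15.4 (-3.81 ± 0.48), and the membrane mucin MUC1 from 1631 ± 63.7 to 412 ± 51.7 (-1.99 ± 0.16). The 2 increases were FOXA2, a transcription factor of foregut epithelium (2.76 ± 0.29), and MUC12 (1.52 ± 0.30), whose corrected value of 0.86 ends the call. MUC1 is also a lung adenocarcinoma marker, and NAPSA, another, changed by -1.18 ± 0.31 but not past the threshold without Int replicate 2.

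Cornified envelope and squamous genes were lower in 12 and higher in 1 of 22 (median -1.24), and in 10 and 0 after the correction. The serpins SERPINB3 and SERPINB4, near-identical neighbours whose reads may be split between them, read 1.93 to 2.63 and 0.963 to 2.63 in BrM and 129 and 229, and 88.7 and 195, in Int. Cystatin A (CSTA), a protease inhibitor of the cell envelope, changed by -4.78 ± 0.26 (corrected -4.09). CALML5, a calmodulin-like protein of the epidermis, had 2 reads in BrM and 181 in Int, a ratio of 85.3 (95% counting interval 23.3 to 710). Keratins were lower in 10 and higher in 1 of 22 (median -0.79), and in 8 and 1 after the correction. KRT23 fell from 516 and 665 to 10.6, 15.8 and 6.74 (-5.68 ± 0.42). KRT78, KRT17 and KRT13, of squamous and basal epithelia, changed by -2.07 ± 0.26, -1.98 ± 0.44 and -1.64 ± 0.22. KRT80 rose by 1.30 ± 0.07. The simple epithelial keratins KRT8, KRT18 and KRT19 had log2 differences of -0.50 ± 0.08, -0.45 ± 0.09 and -0.51 ± 0.08, short of the fold threshold, and -0.35, -0.09 and 0.04 after the correction.

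S100 proteins, small calcium-binding proteins with short transcripts, were lower in 8 and higher in 0 of 15 in limma, and higher in 0 in edgeR and DESeq2, with 0 higher at an unadjusted p below 0.05. After the correction 5 were lower and the median went from -1.29 to -0.61. S100A9, the partner of S100A8 in calprotectin, read 2915, 3130 and 3058 in BrM and 32492 and 41935 in Int (-3.60 ± 0.10, corrected -2.94). S100A12 had 3 reads in BrM and 247 in Int, a ratio of 77.6 (95% counting interval 26.2 to 379). Claudins and other tight junction genes were higher in 2 and lower in 1 of 23 (median 0.17), shares below the 9.91% and 7.25% over all genes, and OCLN (1.08 ± 0.13) was not called after the correction (0.66) or without Int replicate 2.

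NF-kB target and cytokine genes were lower in 23 and higher in 5 of 42 (median -1.15), and in 19 and 4 after the correction. The acute phase genes SAA1 and SAA2, near-identical copies whose reads may be split between them, were among the lowest. SAA1 read 3.53, 3.94 and 4.82 in BrM and 730 and 963 in Int (-7.37 ± 0.16, corrected -6.75), and SAA2 had 3 reads against 609, a ratio of 191 (65.2 to 930). The chemokine CCL20 read 1.18, 0 and 2.89 against 211 and 238 (-6.78 ± 0.42, corrected -6.10), and the cytokine TNF 2.35, 1.31 and 1.93 against 112 and 86.9 (-5.14 ± 0.29). Increases were REL, an NF-kB subunit (2.07 ± 0.22, corrected 1.44), the cytokine receptor LIFR (1.72 ± 0.21), CCL28 (1.24 ± 0.19), IL6R and the cytokine IL11, which rose by 1.34 ± 0.17 but was not called without Int replicate 2.

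Promoters of these members are shown because 23 of them fell together. RefSeq promoters (GRCh38.p14) were matched for 34 of the 42 tested members and searched in the 250 bases before the gene start on both strands for GGGA, any 4 bases, then CC. The motif was present in 14 of the 20 lower members with a promoter and in 7 of the 14 other members, against 22.1% of all 27305 promoters. The list was chosen for NF-kB targets, so a share above that of all promoters says nothing about the change in BrM. A match is a description of the letters and not evidence of binding. Windows of 50 bases are written 5′ to 3′ along the gene, with the motif in capitals.
CXCL1: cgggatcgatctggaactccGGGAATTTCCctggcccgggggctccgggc
CXCL2: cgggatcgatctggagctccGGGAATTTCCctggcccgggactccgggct
CXCL3: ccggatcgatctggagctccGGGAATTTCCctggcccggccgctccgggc
CCL20: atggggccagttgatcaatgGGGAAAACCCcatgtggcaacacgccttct
TNFAIP3: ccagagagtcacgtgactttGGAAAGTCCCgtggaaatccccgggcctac
NFKBIA: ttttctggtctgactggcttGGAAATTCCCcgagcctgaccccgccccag
REL: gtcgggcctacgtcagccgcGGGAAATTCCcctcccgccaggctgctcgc

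The windows lie at chr4:73869294-73869343 (plus strand) for CXCL1, chr4:74099244-74099293 (minus) for CXCL2 and chr4:74038739-74038788 (minus) for CXCL3. Those of CCL20, TNFAIP3, NFKBIA and REL lie at chr2:227813742-227813791 (plus), chr6:137867172-137867221 (plus), chr14:35404801-35404850 (minus) and chr2:60881507-60881556 (plus). In the 3 chemokine paralogs, which share much of their sequence and can share reads, the motif starts 78 or 79 bases before the gene start, and in CCL20, TNFAIP3, NFKBIA and REL 80, 67, 81 and 47 bases before it.

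The levels of these genes, chosen for their promoters after the values were seen, differed in size. CXCL1 read 45.9, 36.8 and 55.9 in BrM against 915 and 848 in Int (-4.24 ± 0.16), CXCL2 17.7, 21 and 24.1 against 110 and 87.7 (-2.19 ± 0.25), and CXCL3 2.35, 1.31 and 1.93 against 24.5 and 13.9. The feedback inhibitors of NF-kB moved with the chemokines: NFKBIA read 994, 946 and 1035 against 3248 and 3170 (-1.69 ± 0.08) and TNFAIP3 734, 713 and 795 against 2461 and 1854 (-1.51 ± 0.11). REL, which holds the same motif, was higher.

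**Figure D5:**
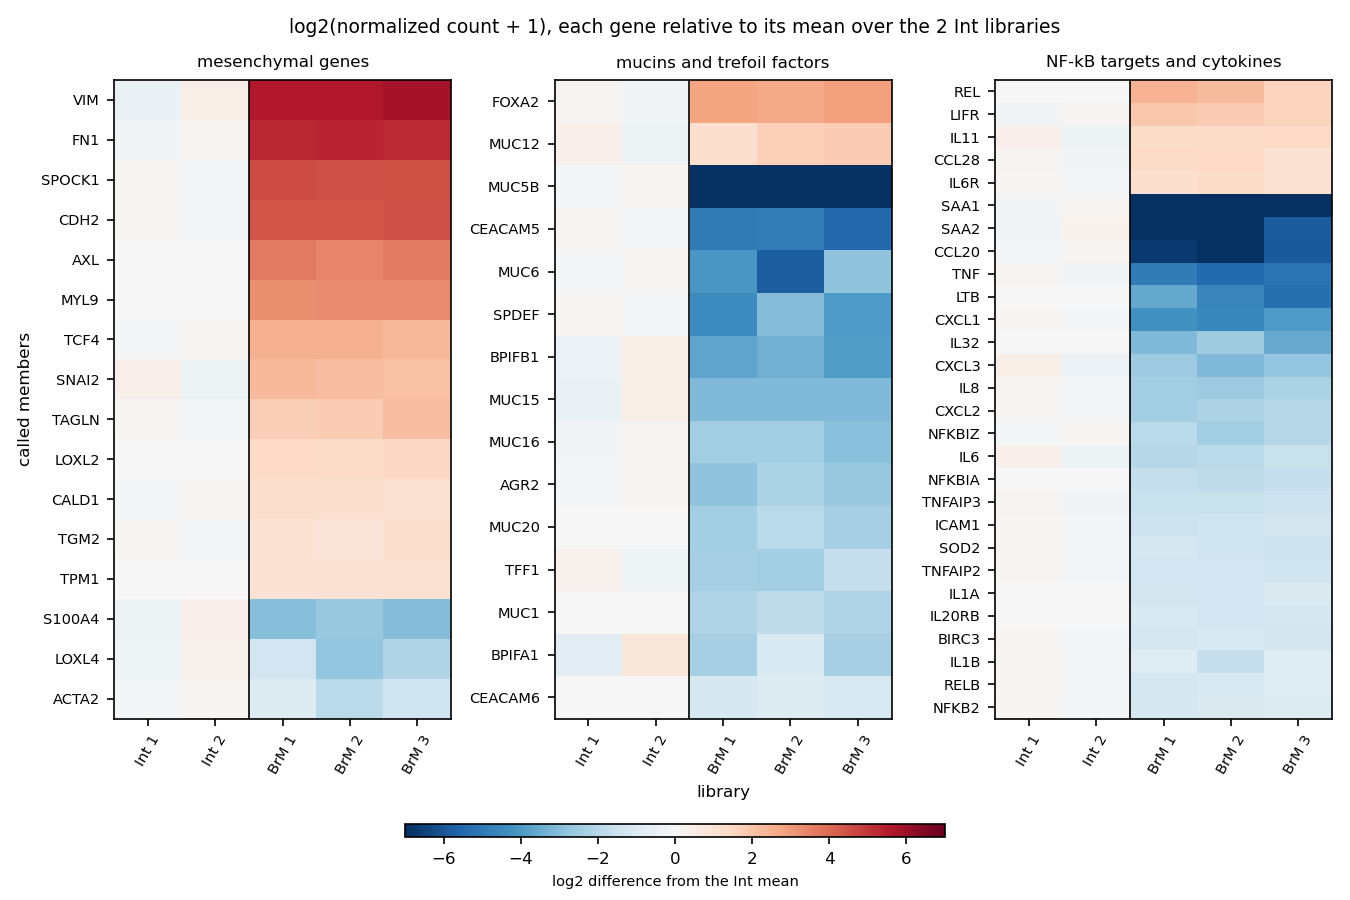
Called members of the mesenchymal, mucin and NF-kB lists in the 2 Int and 3 BrM libraries, coloured by the log2 difference of log2(normalized count + 1) from the gene's Int mean, with the scale limited to 7 in each direction. Most mesenchymal members are red and most mucin and NF-kB members blue in all 3 BrM libraries.

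Complement genes, secreted proteins of innate defence, were lower in 7 and higher in 1 of 17 (median -0.82), and in 8 and 2 after the correction. C3, the central complement protein, read 1106, 1194 and 933 in BrM and 5446 and 6221 in Int (-2.44 ± 0.11, adjusted p = 4.6e-09). The alternative pathway proteases CFB and CFD changed by -2.87 ± 0.08 and -2.91 ± 0.19 (corrected -2.33 for CFD), and C1S of the classical pathway by -2.22 ± 0.39. Par means for C3 and CFB were 1943 ± 80 and 1609 ± 84.7, and the Lep libraries read 5023 and 3915 for C3, so Int and Lep were the high libraries.

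Of 43 interferon-stimulated genes, limma, edgeR and DESeq2 each called 12 lower and 0 higher (median -0.39), and 24 lay below and 6 above Int at an unadjusted p below 0.05 in limma. After the correction 11 were called lower and 0 higher. XAF1, a proapoptotic factor, changed by -4.14 ± 0.31, and the antiviral genes MX2, IFITM1 and IFITM2 by -3.17 ± 0.39, -3.14 ± 0.38 (corrected -2.50) and -4.21 ± 0.43 (corrected -3.55). IFITM copies are alike and their reads may be shared. XAF1 read 2.35, 3.94 and 1.93 in BrM against 61 and 65.6 in Int. The interferon response element, GAAA, any 2 bases, then GAAA on either strand, was in 4 of the 9 lower members with a promoter, in 16 of the 25 others and in 3.07% of all promoters. This list was chosen for interferon response, so its share above all promoters says nothing about the change in BrM.

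Antigen presentation genes were lower in 5 and higher in 3 of 30 (median -0.33), but in 3 and 4 after the correction. The share of higher calls before the correction was close to the 9.91% over all genes. CD74, the class II invariant chain, read 4.71, 1.31 and 1.93 in BrM against 44.7 and 74.6 in Int (-4.12 ± 0.44). The immunoproteasome subunits PSMB8 and PSMB10 changed by -1.34 ± 0.08 and -1.63 ± 0.09 (corrected -1.03 for PSMB10), and HLA-F by -1.40 ± 0.16 with a corrected value of -0.91 that ends the call. The checkpoint ligands PDCD1LG2 and CD274 (PD-L1) rose by 1.48 ± 0.17 and 1.16 ± 0.17, and the stress ligand ULBP1 by 1.06 ± 0.16. CD274 was not called without Int replicate 2, nor ULBP1 without BrM replicate 2 or with quantile normalization. Among macrophage markers the growth factor receptor CSF1R read 404, 445 and 437 in BrM against 86.8 and 82.8 in Int (2.32 ± 0.15), while CD14, a lipopolysaccharide coreceptor, fell by 2.76 ± 0.22 on the log2 scale.

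Prostaglandin genes were lower in 6 and higher in 3 of 22 (median -0.55), with the same counts after the correction. The synthases went in opposite directions, PTGS2 as given above and PTGS1 from 106 and 139 in Int to 28.2, 40.7 and 29.9 in BrM (-1.87 ± 0.25). The receptor PTGER4 rose from 118 ± 31.4 to 758 ± 45.5 (2.70 ± 0.19), beside the transporter SLCO2A1. The lipoxygenases ALOX5 and ALOX15 changed by -1.56 ± 0.10 and -1.71 ± 0.16 and the phospholipase PLA2G16 by -1.18 ± 0.25.

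Genes of detoxification were among the lower groups. Of 42 NRF2 targets and glutathione transferases 14 were lower and 1 higher (median -0.55), and 8 and 1 after the correction. AKR1C1 and AKR1C3, aldo-keto reductases of a family of close copies whose reads may be shared, read 5384 to 6225 and 8527 to 9530 in BrM and 33138 and 33475, and 28470 and 32791, in Int (-2.56 ± 0.16 and -1.78 ± 0.13). CBR3 (-1.71 ± 0.13, corrected -1.10) and MGST2 (-1.71 ± 0.08) were also lower, and haem oxygenase 1 (HMOX1) rose from 444 ± 49.2 to 1450 ± 170 (1.70 ± 0.17). Aldehyde dehydrogenases and retinoid genes were lower in 12 and higher in 3 of 30 (median -0.38), and in 11 and 3 after the correction. Before the correction their share of higher calls was close to the 9.91% over all genes. ALDH1A1, a retinaldehyde dehydrogenase, read 35.3, 42 and 26 in BrM and 1003 and 1630 in Int (-5.20 ± 0.31), and ALDH3A1 661, 761 and 624 against 8704 and 8212 (-3.63 ± 0.11). Their Par means, 972 ± 96.3 and 7904 ± 354, were near Int.

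The retinoid-responsive genes RARRES1 and RARRES3 changed by -3.42 ± 0.18 and -3.06 ± 0.26 (corrected -2.41 for RARRES3). CYP26B1, which degrades retinoic acid, rose by 2.57 ± 0.16 and ALDH1A3 by 1.16 ± 0.09. ALDH6A1 rose by 1.21 ± 0.12 with a corrected value of 0.84 that ends the call. CRABP2, a retinoic acid carrier that is also a meningeal fibroblast marker, changed by -1.08 ± 0.13, with -0.44 after the correction. Of the 13 meningeal fibroblast and pericyte markers 2 of 6 tested were lower, and COL3A1, DCN, LUM, PDGFRA and TBX18 were at 0 in all 5 libraries. Other members were expressed in both groups. COL1A1 read 673 to 811 in BrM and 605 and 528 in Int, and FOXC1 435 to 487 and 816 and 903. RGS5 read 67.1 to 75.1 in BrM and 108 and 113 in Int. The summed level of the list, to which CRABP2 gave the most, was 5120 to 5610 in BrM and 9917 and 10585 in Int. Of 19 ABC transporters, limma, edgeR and DESeq2 each called 3 lower and 0 higher (median -0.36). At an unadjusted p below 0.05 in limma 9 lay below and 3 above Int, and 6 were called lower after the correction. The lipid transporters ABCA12, ABCA4 and ABCG1 changed by -2.84 ± 0.25 (corrected -3.47), -2.58 ± 0.18 and -2.31 ± 0.37.

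Iron handling genes gave 4 higher (TFRC, BMP6, HMOX1, SLC39A14) and 5 lower (CP, LCN2, STEAP1, STEAP4, FTL) members of 20 both before (median -0.01) and after the correction (median -0.20). The transferrin receptor TFRC read 18730, 17838 and 16873 in BrM and 4274 and 3488 in Int (2.20 ± 0.08, adjusted p = 4.7e-10), with a Par mean of 20396 ± 118. LCN2, a secreted carrier of iron-binding siderophores, read 1212, 1415 and 1352 against 21934 and 23802 (-4.11 ± 0.18, adjusted p = 3.5e-09, corrected -3.44). Its receptor SLC22A17 had 0 reads in BrM and 4 in Int and was not tested. Ceruloplasmin (CP), a copper ferroxidase, read 3.53, 3.94 and 1.93 against 53.5 and 97.5 (-4.18 ± 0.39). The metalloreductases STEAP1 and STEAP4 changed by -2.10 ± 0.14 and -1.84 ± 0.15 (corrected -2.44 for STEAP4), and the zinc and iron importer SLC39A14 rose by 1.32 ± 0.09. FOLR1, a folate receptor of choroid plexus, read 8.24, 19.7 and 4.82 in BrM against 171 and 256 in Int (-4.34 ± 0.40), while TTR, the leading choroid plexus marker, was at 0 in all 5 libraries. The summed level of the choroid plexus and ependyma list, with 1 of 2 tested members lower, was 17.7 to 38.1 in BrM and 196 and 275 in Int.

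Sterol and fatty acid synthesis genes were lower in 6 and higher in 3 of 43 (median -0.39), and in 10 and 2 after the correction. Their share of higher calls was below the 9.91% over all genes. SREBF1, the transcription factor of lipid synthesis, read 3706, 3936 and 3759 in BrM and 11497 and 11078 in Int (-1.57 ± 0.25). The desaturase FADS2 read 681, 725 and 644 against 2132 and 2399 (-1.73 ± 0.27). Par means were 2258 ± 287 for SREBF1 and 227 ± 11.1 for FADS2, below BrM as well as Int. ACACB (1.08 ± 0.13) was not called after the correction (0.53), without BrM replicate 2 or with quantile normalization, and SC5DL (1.03 ± 0.10) not without BrM replicate 1 or Int replicate 1 or with quantile normalization.

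Hypoxia and glycolysis genes gave 5 higher and 2 lower of 48 (median 0.18), a share of higher calls close to the 9.91% of all genes, and 4 and 2 after the correction. The glucose transporter SLC2A3 (GLUT3) read 7527, 6527 and 7743 in BrM and 1742 and 2696 in Int (1.74 ± 0.25), and the oxygen-sensing factors HIF1A and EPAS1 rose by 1.63 ± 0.11 and 1.52 ± 0.09. Par means of HIF1A and EPAS1 were 6201 ± 61.6 and 11053 ± 226, above the Int means of 1957 ± 401 and 5395 ± 693. STC2 rose by 1.39 ± 0.17. The carbonic anhydrase CA12 and the hydroxylase EGLN3, both targets of these factors, changed by -3.17 ± 0.21 and -1.28 ± 0.12. The hypoxia element ACGTG or CACGT was in 17 of the 41 members with a promoter that were not lower, in neither of the 2 lower ones, and in 18.7% of all promoters. As with the NF-kB list, its share above all promoters says nothing about the change in BrM. Amino acid and endoplasmic reticulum stress genes gave 3 higher and 2 lower of 42 (median -0.09), and 3 and 0 after the correction. Before the correction both shares were below the 9.91% and 7.25% over all genes. SLC1A4, a neutral amino acid transporter, rose by 2.34 ± 0.15, VLDLR by 1.96 ± 0.19 (corrected 1.34) and ERN1 by 1.49 ± 0.17 (0.96, no longer called). CBS and CEBPB changed by -1.18 ± 0.14 and -1.10 ± 0.07, with corrected values of -0.97 and -0.73 that end both calls.

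Proliferation genes changed little as a group. Of 43 cell cycle and replication genes 4 were higher and 2 lower (median -0.06), and 2 and 2 after the correction, shares near or below those over all genes. CCNB1, the mitotic cyclin, fell from 12073 ± 765 to 4942 ± 172 (-1.29 ± 0.06) and the thymidylate synthase TYMS rose from 271 ± 30.7 to 653 ± 39.2 (1.27 ± 0.09). The kinase inhibitor CDKN1A (p21), which is also a p53 target, rose from 920 and 782 to 1823, 1934 and 2093 (1.20 ± 0.12). CDK6 (1.42 ± 0.09), E2F2 (1.03 ± 0.09) and CDC20 (-1.05 ± 0.07) had corrected values of 0.77, 0.80 and -0.59 and were then not called. E2F2 also lost its call without BrM replicate 1, and E2F2 and CDC20 with quantile normalization. Of 28 p53 targets 4 were higher and 2 lower (median 0.10), against 9.91% and 7.25% over all genes, and 3 and 1 after the correction. BBC3 (PUMA), a proapoptotic factor, changed by -1.62 ± 0.20. ZMAT3 (1.12 ± 0.10) and RRM2B (1.12 ± 0.13) were not called after the correction (0.54 and 0.94). TNFRSF10A (1.10 ± 0.11) was not called without Int replicate 2 or with quantile normalization, and PHLDA3, at 879 to 1005 in BrM against 1881 and 1903 in Int, not after the correction (-0.79), without BrM replicate 1 or Int replicate 2, or with a pseudocount of 5.

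Imprinted genes were higher in 5 and lower in 2 of 14 (median 0.38), and in 3 and 1 after the correction. H19, a non-coding RNA transcribed beside IGF2 and normally from the other parental chromosome, read 85.9, 98.5 and 64.5 in BrM and 2008 and 2639 in Int (-4.80 ± 0.16, adjusted p = 2.6e-10), while IGF2 read 162, 164 and 157 against 45.9 and 40.2. The neighbours thus moved in opposite directions in these libraries, H19 with a Par mean of 153 ± 8.62 and Lep values of 4256 and 3838. PEG10 (1.08 ± 0.13) and L3MBTL1 (1.27 ± 0.20) were not called after the correction (0.59 and 0.83), and PEG10 not without Int replicate 2. Of 8 cancer testis genes tested 2 were lower and 0 higher in limma, 2 and 0 in edgeR and 1 and 0 in DESeq2, and 7 lay below and 0 above Int at an unadjusted p below 0.05 in limma. MAGEA1, of a family of close copies, read 40, 35.5 and 37.6 in BrM against 640 and 630 in Int (-4.04 ± 0.39).

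Lung lineage genes were lower in 5 and higher in 1 of 18 (median -0.06), and in 4 and 1 after the correction. LPCAT1, an enzyme of surfactant lipid synthesis, rose from 3147 ± 8.14 to 9088 ± 380 (1.53 ± 0.18), while the monooxygenase CYP4B1 and the water channel AQP1 changed by -2.15 ± 0.38 and -1.56 ± 0.22. Lymphocyte markers were near 0, with summed levels of 29.9 to 30.6 in BrM and 25.2 and 37.7 in Int. Of 2 tested, CD8A was called higher, at 8.24 to 13.1 in BrM and 1.26 and 4.1 in Int.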

How the data were processed

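The authors deposited 1 table of normalized counts for the PC9 libraries, with genes named by symbol. These deposited signal values are scaled reads. In every library 100% of them were whole multiples of a single step (tolerance 0.01), from which whole reads were recovered. Tools named in the submitters' processing notes are HTSeq 0.5.4, DESeq2 and FastQC 0.11.3. Among the builds, which carry no role there, are hg19 (GRCh37) for human and mm10 for mouse. No source used here names the aligner. The kit does not mark strand, so antisense and overlapping genes cannot be told apart.

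Genes that reached 10 in 2 or more of the 10 libraries were tested with limma 3.58.1 (trend, R 4.3.3) on log2(value + 1), with all PC9 libraries in 1 fit, two-sided and Benjamini-Hochberg adjusted. Fold changes are on the log2(value + 1) scale, given ± their standard error, and understate the change of low genes. Calls needed an adjusted p below 0.05 and a log2 fold change of at least 1 in size. All adjusted p-values in the text are from limma. On data simulated from the table, 99% of 4-fold and 54% of 2-fold changes were called, and 1 of 14082 unchanged genes. The simulated libraries held no trend with transcript length or GC content, and changes were not placed in the lowest genes. These shares therefore do not cover calls that follow such a trend. Just inside the filter, 141 genes had a second-highest value of 10 to 11 (LOC100506939 and TMC1 at 10.03), and 153 lay just outside at 9 to 10 (MIR106B and DGCR10 at 9.833).

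The correction subtracted, per library, a natural spline (5 degrees of freedom each) of the longest GENCODE v29 transcript's length and GC content. Values existed for 95.7% of tested genes. Other alternatives were pseudocounts of 0.25 and 5, no filter, a filter at 50, quantile normalization, edgeR 4.0.16 and DESeq2 1.42.0 on the recovered reads, BrM and Int libraries alone, a replicate block, and each replicate left out.

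The contrast and the 38 gene lists and 7 marker lists were chosen with earlier results of these data known. Named genes were the 15 largest changes in each direction among genes with non-overlapping libraries whose higher group averaged 100 or more, up to 4 called members per list and direction averaging 50 or more, and a fixed set (C3, LCN2, SLC22A17, EGFR, VIM, CDH1, LEF1, HOXB9, PCDH7, GJA1, L1CAM and the lung adenocarcinoma markers). Some genes that the rule names are not reported here. Further called members are named without values to complete a count.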

Additional observations from a re-analysis of the deposited data

Results flagged for a closer look

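For the 6 largest changes in each direction, the BrM and Int libraries of the 2 other human models were set beside PC9. Some genes moved the opposite way there, with every BrM library on the other side of every Int library. With so few libraries this separation is only a description, and the share of all genes that separate so there was not counted. The difference between models was not tested, and the tables were normalized separately, so each log2 difference holds within its own model. HCC1954 and MDA-MB-231 are human breast carcinoma lines, and MDA-MB-231 was read at 75 bases.

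In MDA-MB-231 (3 BrM and 2 Int libraries) TLR4 had a log2 difference of -2.33 against 6.29 in PC9, with BrM values of 716 to 851 and Int values of 3454 and 4625. LBH had -1.03 against 5.97, COL5A1 -0.99 against 5.70, and SLCO2A1 -3.12 against 6.05, the last with 0 in each BrM library and 7.44 and 7.93 in Int.

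In HCC1954 (2 and 2 libraries) FGFR2, higher in PC9 BrM (315 reads against 2), had -2.19, with BrM values of 122 and 128 and Int values of 524 and 633. C12orf75, also higher in PC9 BrM (367 reads against 3), had -1.16 (but 0.90 in MDA-MB-231, with every BrM library above Int as in PC9). SLCO2A1 had a small difference, -0.26 against 6.05, with 79 and 66.8 in BrM and 90.1 and 84.5 in Int. SLC6A14 had a difference of like size, -0.25, in the same direction as in PC9. The lower genes also differed: MUC5B had 2.05 against -7.55 in PC9, and PECAM1 3.89 against -7.41, with 2763 and 2953 in BrM and 210 and 176 in Int. SAA1 and SAA2, whose reads may be shared, had 1.68 and 1.69, while both were lower in PC9 BrM (-7.37 for SAA1 and 3 reads against 609 for SAA2). MUC5B and PECAM1 were lower in BrM in MDA-MB-231 as in PC9, with log2 differences of -6.39 and -3.85.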

How the results depend on the processing

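The count of called genes was 2484 and stayed within 1.5 times of it under each alternative run: from 1906 (filter at 50) to 2907 (no filter), 2530 in edgeR, 2380 in DESeq2, and 2189 to 2539 when each replicate was left out. No named call was reversed under any of them. Among named genes that were not called, KRT19 went from -0.51 to 0.04 and KRT7 from -0.06 to 0.39 after the length and GC correction. Replicate numbers did not pair the libraries (correlations of same-numbered and other deviations from -0.075 to 0.075). The replicate block gave 2496 calls and ended none of the 215 named calls, and 1967 together with the length and GC correction, where 27 named calls ended, among them GREM1, FGFBP1 and MGP. The correction alone gave 1958, ended 25 named calls and added PCDH7. Leaving out Int replicate 2 ended 16 named calls. The larger of the higher and lower counts turned round after the correction in 4 of 38 lists: antigen presentation, epithelial genes, matrix proteases, and neuronal genes. In further lists the 2 counts became equal: HOX genes, MAPK genes, other receptor tyrosine kinases, cell cycle genes and claudins. With 2 Int libraries, leaving 1 out assumes that the other varies like the other groups. Mean levels under about 3 reads per library are limited by depth.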
